A study of Mus musculus with 20 samples.

Results

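The proteasome genes of the mouse were followed in the RNA and in the accessible chromatin of Tcf21-lineage cardiac fibroblasts before and after myocardial infarction (MI). Members were the rows of the deposited count table whose symbol begins with Psma, Psmb, Psmc, Psmd or Psme followed by a digit, without pseudogene symbols and with at least 100 counts summed over the 10 RNA libraries. The rule took 44 of 25746 genes, and all 44 were among the 14968 genes that passed the filter on low counts. Psmb11 lay just outside with 38 counts in 2 libraries, and Psma8 (267 counts) and Psmc3ip (1343 counts) lay just inside. Psmc3ip shares the prefix but encodes a factor of meiotic recombination, which leaves 43 subunits, assembly chaperones and activators. Psme2 and Psme2b are near-identical copies between which reads may have been split, so their values are uncertain.

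The cells were sorted from digested hearts as eGFP-positive cells, marked through a tamoxifen-inducible MerCreMer recombinase in the Tcf21 lineage. The transcription factor Tcf21 is made by resident fibroblasts of the heart, and the mark passes to their descendants. Tamoxifen was given at 75 mg per kg of body weight per day for 5 days, in the uninjured group as in the others, and each RNA library came from 10000 sorted cells. The 5 groups were uninjured hearts and, after MI, those of day 3, of day 7, of week 2 and of week 4, with 2 RNA-seq and 2 ATAC-seq libraries per group. The reference group is labelled uninjured, with no mention of a sham operation, and strain, age and sex are not given in the labels. Whether paired libraries represent different mice is not stated in the labels, and the p-values therefore reflect library-to-library spread only. At day 3, day 7 and week 4 the Y-linked shares given below differed within the pair, so these pairs were not repeats of 1 mouse. For the uninjured and week 2 pairs the shares do not tell this, and their spread may be technical. The RNA libraries held 16397211 to 21043997 counts, and values below are CPM, meaning counts put on one library size through TMM factors, which compare a gene across libraries but not one gene with another. The share of counts from Y-linked genes was 0.0124% to 0.0429% in 5 libraries (1 each at day 3, day 7 and week 4, and both at week 2). It was at most 6.24e-05% in the other 5, both uninjured libraries included. A difference between week 2 and uninjured hearts therefore cannot be told apart from a difference in sex. At day 3, day 7 and week 4, 1 library of each group differed from the uninjured ones in this way, so time and sex are partly confounded. The 8 fibroblast markers summed to 18033 to 63007 CPM in every library.

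The proteasome degrades proteins tagged with ubiquitin. Its barrel-shaped core has outer rings of alpha subunits (Psma) and inner rings of beta subunits (Psmb), of which Psmb5, Psmb6 and Psmb7 carry the proteolytic sites. A regulatory particle of ATPases (Psmc) and other subunits (Psmd) binds, deubiquitinates, unfolds and feeds in the substrate. Interferon induces Psmb8, Psmb9 and Psmb10, which replace Psmb5, Psmb6 and Psmb7 in the immunoproteasome, a form known for generating peptides for MHC class I, and it also induces the activator subunits Psme1 and Psme2. When proteasome activity falls short, the transcription factor Nfe2l1 raises the constitutive subunits together through antioxidant-type response elements.

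The promoters of members on which the results turn are shown first, from RefSeq on GRCm38.p6, each 5′ to 3′ on the strand of the gene, from 250 bases before to 50 bases after the listed start. RefSeq listed a promoter for 37 of the 44 members. The constitutive catalytic genes Psmb5 (chr14:54617946-54618245, minus strand) and Psmb6 (chr11:70525107-70525406, plus strand) are set against the immunoproteasome genes Psmb8 (chr17:34197945-34198244, plus strand) and Psmb9 (chr17:34187281-34187580, minus strand). Psmd14 (chr2:61711444-61711743, plus strand) and Psma4 (chr9:54950609-54950908, plus strand) had the highest RNA changes at day 3. Capitals mark every match on either strand to 4 motifs: the interferon-stimulated response element (TTTC, any 2 bases, then TTTC), the interferon-gamma activated site TTCNNNGAA, the antioxidant-type element TGACNNNGC and the CCAAT box.
Psmb5: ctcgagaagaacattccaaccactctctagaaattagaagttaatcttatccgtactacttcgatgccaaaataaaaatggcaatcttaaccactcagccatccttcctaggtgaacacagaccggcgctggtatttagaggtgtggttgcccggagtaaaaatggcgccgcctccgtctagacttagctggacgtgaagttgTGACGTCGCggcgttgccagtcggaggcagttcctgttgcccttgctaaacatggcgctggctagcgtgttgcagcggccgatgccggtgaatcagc
Psmb6: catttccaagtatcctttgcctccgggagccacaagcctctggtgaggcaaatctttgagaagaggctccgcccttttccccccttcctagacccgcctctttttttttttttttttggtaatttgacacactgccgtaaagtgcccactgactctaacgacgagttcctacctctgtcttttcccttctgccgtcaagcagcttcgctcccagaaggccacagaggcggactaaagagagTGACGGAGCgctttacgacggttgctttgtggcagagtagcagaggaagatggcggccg
Psmb8: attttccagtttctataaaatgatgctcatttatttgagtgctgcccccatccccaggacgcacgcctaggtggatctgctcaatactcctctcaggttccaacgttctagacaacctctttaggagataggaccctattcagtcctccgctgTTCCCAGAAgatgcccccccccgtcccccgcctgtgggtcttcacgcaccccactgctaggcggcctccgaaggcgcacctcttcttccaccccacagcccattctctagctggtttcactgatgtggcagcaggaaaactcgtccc
Psmb9: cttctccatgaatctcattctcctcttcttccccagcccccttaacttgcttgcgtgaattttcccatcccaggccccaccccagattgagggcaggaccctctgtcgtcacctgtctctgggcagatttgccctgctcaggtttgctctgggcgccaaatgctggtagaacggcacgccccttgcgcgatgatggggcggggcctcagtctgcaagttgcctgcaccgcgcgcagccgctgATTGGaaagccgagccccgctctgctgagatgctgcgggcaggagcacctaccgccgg
Psmd14: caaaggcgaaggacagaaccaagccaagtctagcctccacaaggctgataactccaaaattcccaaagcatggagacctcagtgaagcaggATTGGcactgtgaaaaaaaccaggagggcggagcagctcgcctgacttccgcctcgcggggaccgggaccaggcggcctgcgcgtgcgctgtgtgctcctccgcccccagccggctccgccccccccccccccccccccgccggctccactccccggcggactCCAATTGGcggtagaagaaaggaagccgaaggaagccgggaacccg
Psma4: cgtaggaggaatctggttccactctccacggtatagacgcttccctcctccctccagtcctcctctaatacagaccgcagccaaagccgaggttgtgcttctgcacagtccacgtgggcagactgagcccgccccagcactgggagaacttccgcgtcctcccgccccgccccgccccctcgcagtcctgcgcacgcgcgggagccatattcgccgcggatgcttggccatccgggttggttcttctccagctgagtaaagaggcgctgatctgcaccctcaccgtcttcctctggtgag
Psmb5 and Psmb6 each held 1 antioxidant-type element, Psmb8 held 1 interferon-gamma activated site, Psmb9 held 1 CCAAT box and Psmd14 held 3, of which 2 overlap, and Psma4 held none of the 4 motifs. Over the 37 promoters, the interferon-stimulated element was found in 4 (Psmb3, Psmd4, Psmd9 and Psme1), 10.8% against 3.49% of all 16700 listed promoters. The antioxidant-type element was found in 6 (Psmb5, Psmb6, Psmc6, Psmd12, Psmd9 and Psme4), 16.2% against 13.3%. The interferon-gamma activated site was found in 2 (Psmb8 and Psmd2), 5.41% against 7.87%, and the CCAAT box in 14, 37.8% against 38.7%. These matches describe letters in a fixed window and were not tested. The windows of Psmb8 and Psmb9 do not reach the 5′ ends of their deposited spans. Those ends lie 474 and 434 bases before the listed starts, so motifs there were not searched.

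At day 3 after MI the RNA of most proteasome genes was higher than in uninjured hearts. In edgeR's quasi-likelihood test, with Benjamini-Hochberg adjustment over all 14968 genes at 0.05, 23 of 44 members rose and 0 fell, where 7.39% of all genes rose and 4.4% fell. The median log2 fold change was 0.79 over the members and -0.02 over all genes tested. In 38 of 44 members both day 3 libraries lay above both uninjured libraries, which held for 29.5% of all genes. Together the members took 0.552% and 0.557% of counts in the uninjured libraries and 0.870% and 1.03% at day 3. In bulk RNA, a change in the number of cells of a type and a change in RNA per cell cannot be told apart. The count of risen members fell to 5 without uninjured replicate 1 (Psmc1, Psmd2, Psmd14, Psmb2 and Psma4), to 2 without uninjured replicate 2 (Psmc1 and Psmd14), to 3 without day 3 replicate 2 (Psmc1, Psmd14 and Psma4) and to 14 without week 4 replicate 2, while the median stayed between 0.70 and 0.85 over all 10 such fits.

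**Figure D1:**
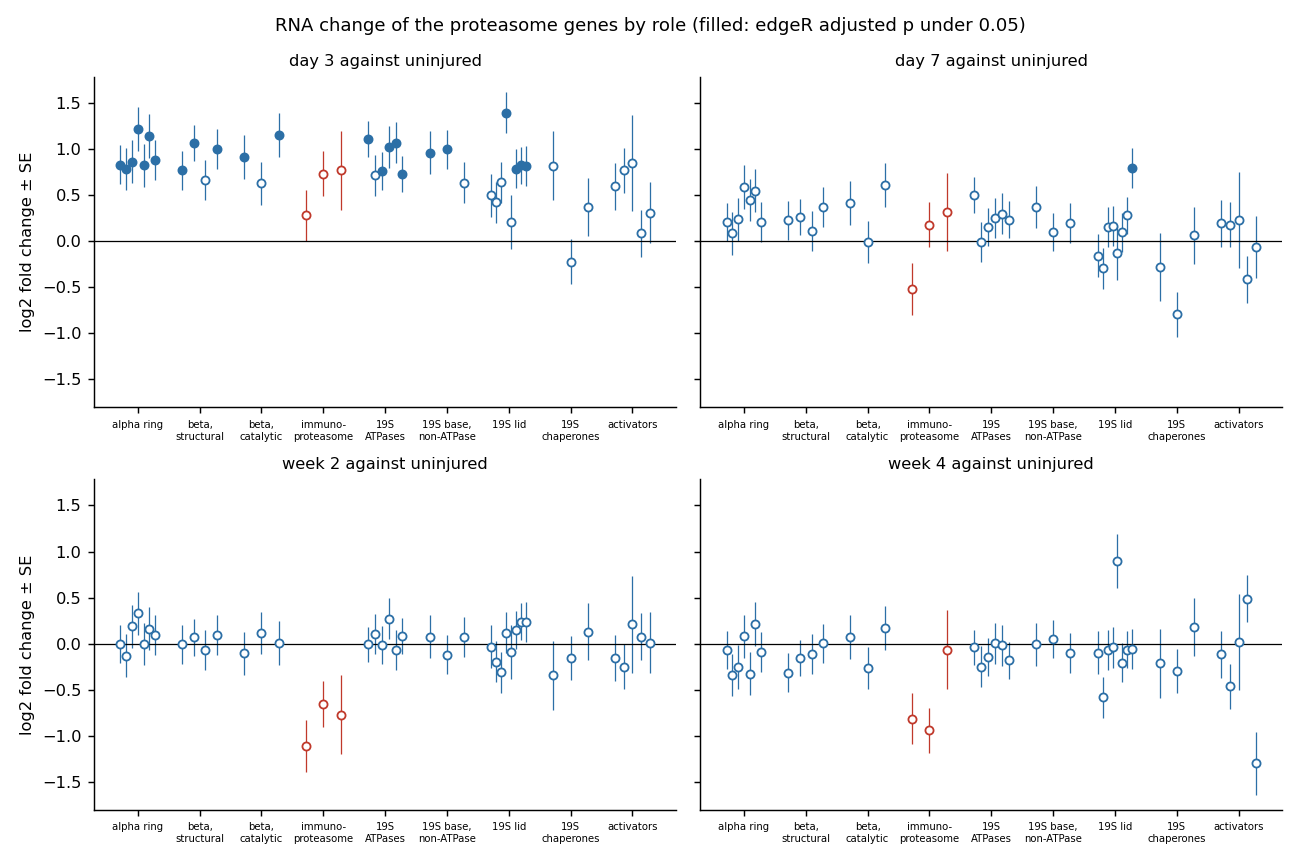
Log2 fold change ± SE (edgeR) of the proteasome genes against uninjured hearts at each time, grouped by role, with the immunoproteasome genes in red, and Psma8 and Psmc3ip left out. Filled points passed an adjusted p of 0.05: 23 at day 3, 1 at day 7 (Psmd8) and 0 at week 2 and week 4.

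In the alpha ring, 7 of 8 members rose at day 3. Psma4 stood at 125 and 118 CPM in the uninjured libraries, 274 and 289.6 at day 3, 141 and 224 at day 7, 138 and 166 at week 2, and 125 and 131 at week 4. Both day 3 libraries lay above all others, a 2.33-fold rise (log2 1.22 ± 0.24, SE, adjusted p = 0.00597, edgeR). Psma6 rose from 73.7 and 83.0 CPM to 149 and 197 (log2 1.14 ± 0.24, adjusted p = 0.00827, edgeR). Psma8, the alpha subunit of the testis proteasome, was the exception, with 38 and 27 counts in the uninjured libraries, 1 and 0 at day 3, 0 and 113 at day 7, 1 and 78 at week 2, and 9 and 0 at week 4. Both its day 3 libraries lay below both uninjured ones, but the change did not pass the test (adjusted p = 0.309, edgeR). Its libraries differed widely within day 7 and within week 2. The other 5 that rose, Psma1, Psma2, Psma3, Psma5 and Psma7, had log2 fold changes of 0.79 to 0.89.

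Among the beta subunits without a proteolytic site, Psmb1, Psmb2 and Psmb4 rose, by 0.77, 1.07 and 1.01 on the log2 scale, and Psmb3 did not pass (0.67, adjusted p = 0.0666, edgeR). Of the constitutive catalytic subunits, 2 of 3 rose. Psmb5, the chymotrypsin-like site, stood at 68.5 and 83.3 CPM in uninjured hearts, 120.3 and 166 at day 3, 99.7 and 103 at day 7, 66.7 and 74.4 at week 2, and 81.1 and 78.7 at week 4. The day 3 libraries lay above all others, 1.88-fold over uninjured (log2 0.91 ± 0.24, SE, adjusted p = 0.0262, edgeR). Psmb7, the trypsin-like site, stood at 89.1 and 90.3 CPM, then 172 and 227, 114 and 160.0, 84.6 and 95.6, and 102 and 100.4 in the same order of groups. It rose 2.22-fold at day 3 (log2 1.15 ± 0.24, SE, adjusted p = 0.00811, edgeR), and its lower day 3 library and higher day 7 library lay close together. Psmb6, the caspase-like site, stood at 248 and 228 CPM, then 311 and 425, 247 and 227, 215 and 300.2, and 180.4 and 215. Its day 3 libraries were the highest, but the lower of them was close to 1 week 2 library, and the change did not pass (log2 0.63 ± 0.23, SE, adjusted p = 0.103, edgeR).

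In the regulatory particle, 5 of 6 ATPases rose, with log2 fold changes of 0.73 (Psmc6), 0.77 (Psmc3), 1.02 (Psmc4), 1.07 (Psmc5) and 1.11 (Psmc1), while Psmc2 (0.72, adjusted p = 0.0547, edgeR) did not pass. The scaffold subunits Psmd1 (0.96) and Psmd2 (1.00) rose, and the ubiquitin receptor Psmd4 did not pass (0.64, adjusted p = 0.0793, edgeR). Of the 8 lid subunits 4 rose: Psmd6 (0.79), Psmd7 (0.82), Psmd8 (0.81) and Psmd14. Psmd14, the deubiquitinase of the lid, had the highest change of all members. It stood at 101 and 127 CPM in uninjured hearts, 302 and 299 at day 3, 122 and 135 at day 7, 106 and 142 at week 2, and 113 and 109 at week 4. The day 3 libraries lay more than 2-fold above every other library, and the rise over uninjured was 2.63-fold (log2 1.40 ± 0.22, SE, adjusted p = 0.00193, edgeR).

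Of the assembly chaperones (Psmd5, Psmd9, Psmd10) 0 of 3 passed at day 3, and of the activators 0 of 5, where 7.39% of all genes rose. Psmd10 (log2 0.82), Psme2b (0.85) and Psme2 (0.77) had changes of the size of subunits that passed, and the difference between roles was not tested. Psmd5 stood at 114 and 119 CPM in uninjured hearts, 89.3 and 110.5 at day 3, 79.2 and 55.2 at day 7, 106 and 103 at week 2, and 99.8 and 89.6 at week 4, below both uninjured libraries at every time. Its day 7 change did not pass (log2 -0.79 ± 0.24, SE, adjusted p = 0.0726, edgeR). The interferon-inducible activator subunit Psme1 went from 67.0 and 77.3 CPM to 116 and 102 at day 3, then 74.2 and 90.9, 53.4 and 76.3, and 67.0 and 66.3 (day 3 log2 0.60 ± 0.25, SE, adjusted p = 0.162, edgeR). Its partner Psme2 went from 124 and 128 CPM to 190.0 and 241 at day 3, then 136 and 149.8, 82.4 and 130.1, and 90.5 and 92.5 (day 3 log2 0.77 ± 0.25, SE, adjusted p = 0.0617, edgeR). Both genes were highest at day 3 in both libraries without passing the test. Psme3, the nuclear activator, was nearly level (log2 0.09), and Psme4, the activator with a known role in histone degradation, had a log2 change of 0.31.

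Of the immunoproteasome genes 0 of 3 passed the test at day 3, and of the other members 23 of 41, where 7.39% of all genes rose. Their median log2 fold changes were close, 0.73 and 0.81, and the difference between them was not tested. Psmb8 stood at 78.0 and 86.5 CPM in uninjured hearts, 142 and 132 at day 3, 87.1 and 99.6 at day 7, 44.1 and 60.3 at week 2, and 46.7 and 38.9 at week 4. The day 3 libraries were above all others and the libraries of week 2 and week 4 below all others, but neither the day 3 change (log2 0.73 ± 0.25, SE, adjusted p = 0.0737, edgeR) nor the week 4 change (-0.94 ± 0.25, adjusted p = 0.0761) passed against uninjured. At day 3 it passed with DESeq2 (adjusted p = 0.0433), with only the 2 groups in the fit (0.0489) and without week 2 replicate 2 (0.0499), and at week 4 with DESeq2 (0.0111), without the filter on low counts (0.0474) and without either week 2 library (0.0399 and 0.0384). Psmb9 stood at 15.5 and 16.1 CPM, then 28.6 and 25.4, 15.9 and 23.6, 8.58 and 9.88, and 18.2 and 12.1. It had the fewest counts of the 3 genes, and its day 3 change did not pass (log2 0.77 ± 0.43, SE, adjusted p = 0.29, edgeR). Psmb10 stood at 64.4 and 96.7 CPM, then 103 and 92.3, 51.0 and 61.5, 32.1 and 42.7, and 45.5 and 46.1. Its uninjured and day 3 libraries overlapped (log2 0.28 ± 0.28, SE, adjusted p = 0.585, edgeR), and all 6 later libraries were below both.

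**Figure D2:**
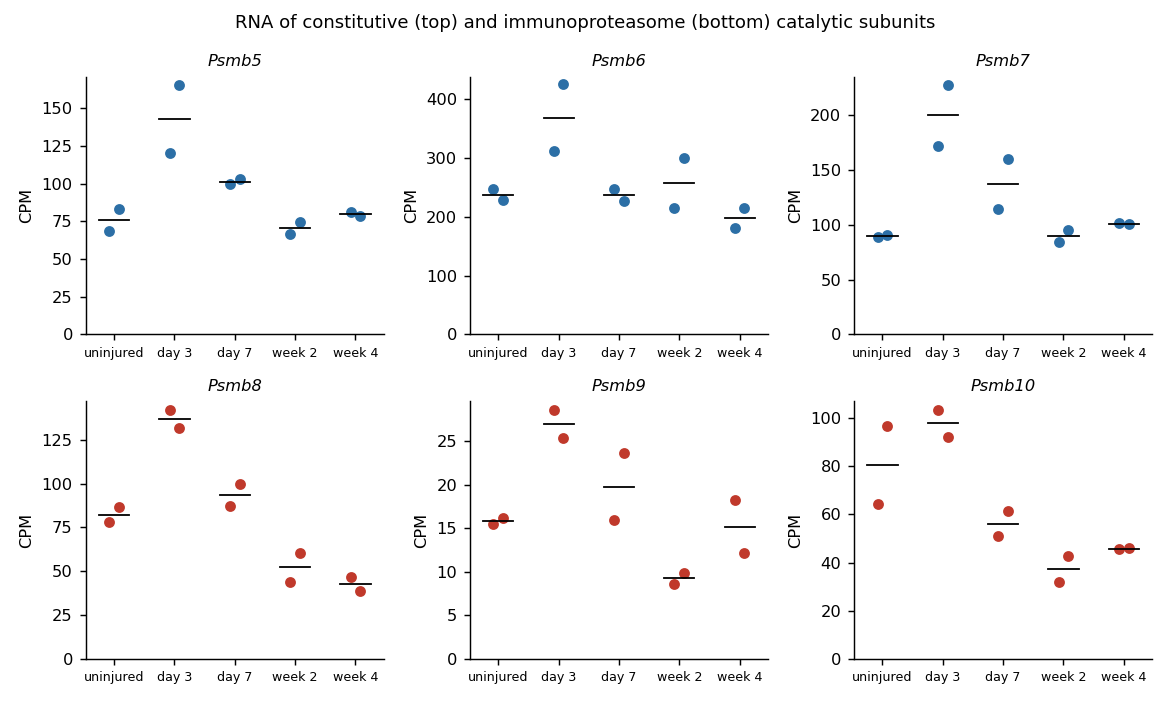
CPM of the constitutive catalytic subunits (top, blue) and of the immunoproteasome subunits that replace them (bottom, red) in each of the 2 RNA libraries per group, with the group mean as a line. Psmb8 fell from 142 and 132 CPM at day 3 to 46.7 and 38.9 at week 4, while Psmb5 at week 4 (81.1 and 78.7 CPM) lay within the range of its uninjured libraries.

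After day 3 the median log2 fold change of the members against uninjured hearts was 0.20 at day 7, 0.00 at week 2 and -0.10 at week 4. At day 7, 1 member was higher than in uninjured hearts (4.39% of all genes were) and 0 were lower (2.76%). It was the lid subunit Psmd8, at 107 and 105 CPM in uninjured hearts, 169 and 202 at day 3, 169.8 and 197 at day 7, 112 and 137 at week 2, and 94.9 and 108 at week 4. Its change was 0.79 ± 0.22 on the log2 scale (SE, adjusted p = 0.0451, edgeR), and it was lost under 5 of the 8 alternative settings that kept all libraries and without any 1 of 8 libraries. At week 2 and at week 4, 0 members passed in either direction in edgeR, where 1.89% and 2.32% of all genes did. DESeq2 called 1 and 2 members, and over all genes it also called more than edgeR, as given below. An unadjusted edgeR p under 0.05 was found for 2 and 5 of 44 members, and for 1579 and 1905 of all 14968 genes. The members thus did not exceed all genes in this count. The 2 at week 2 were Psmb8 (log2 -0.66) and Psmb10 (-1.11 ± 0.28, SE, adjusted p = 0.0784, edgeR), and DESeq2 called Psmb10 (adjusted p = 0.014). The 5 at week 4 were Psmb8, Psmb10 (-0.81), Psmd12 (-0.58), Psme4 (-1.30) and Psmd3 (0.90), and DESeq2 called Psmb8 and Psme4. At week 2, both libraries lay below both uninjured libraries for all 3 immunoproteasome genes and for 4 of the 41 others (22.4% of all genes). At week 4 this held for 2 of 3 and 20 of 41 (25.6% of all genes). The week 2 libraries differed, and the median member change of 0.00 became 0.15 without replicate 1 (30 members positive, 14 negative) and -0.16 without replicate 2 (9 positive, 35 negative), which carries a library code of another letter than the other RNA libraries.

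Psmd3, a lid subunit, had its highest values late, at 44.5 and 59.4 CPM in uninjured hearts, 68.7 and 51.6 at day 3, 47.4 and 47.8 at day 7, 59.1 and 38.4 at week 2, and 102 and 91.2 at week 4. At week 4 both its libraries lay above both uninjured libraries, as at no other time, and the change did not pass (log2 0.90 ± 0.29, SE, adjusted p = 0.176, edgeR). Psme4 ran from 38.1 and 44.1 CPM in uninjured hearts to 12.7 and 20.7 at week 4, its lowest group, with an adjusted p of 0.0767 in edgeR.

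Compared with day 3, week 4 had lower RNA for 32 of 44 members and higher RNA for 0, where 7.52% of all genes were lower and 5.84% higher. All 23 members that had risen at day 3 were among the 32, so the shared day 3 libraries enter both counts. The other 9 were Psmb3, Psmb6, Psmb8, Psmb10, Psmc2, Psmd4, Psmd12, Psme2 and Psme4. Psmb8 fell the furthest, to 0.313 of its day 3 level (log2 -1.68 ± 0.25, SE, adjusted p = 0.00159, edgeR), and Psmb10 fell by 1.09. Without day 3 replicate 2, 5 members were lower (Psmc1, Psmb8, Psmd14, Psma5 and Psmb2), without week 4 replicate 1 also 5 (the same genes), and without week 4 replicate 2, 10. Day 7 differed from day 3 for Psmd14 alone in edgeR (log2 -1.23 ± 0.22, SE, adjusted p = 0.0194; 1.38% of all genes differed and 0.555% were lower), although 40 of 44 members had both day 7 libraries below both day 3 libraries (23.8% of all genes). DESeq2 called 7 members there (Psmb2, Psmc1, Psmc4, Psmc5, Psmd2, Psmd6 and Psmd14), and edgeR called 0 without day 3 replicate 2 or without either day 7 library. Over all 5 groups, 29 of 44 members differed in edgeR's F-test, against 15.7% of all genes, among them Psmb8 (adjusted p = 0.00337) and Psmb10 (0.0183) but not Psmb9 (0.149).

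The immunoproteasome genes were then set against the subunits they replace, as the log2 ratio of CPM within each library. The level of such a ratio also depends on the lengths of the 2 genes, so that only its change between libraries is read. Psmb10 to Psmb7 was -0.47 and 0.10 in the uninjured libraries, -0.73 and -1.30 at day 3, -1.16 and -1.38 at day 7, -1.39 and -1.16 at week 2, and -1.16 and -1.12 at week 4. All 8 libraries after MI lay below both uninjured libraries, with a difference in means of -0.99. In an exact two-sided permutation test over the 45 ways to choose 2 of 10 libraries this gave p = 0.0222, the smallest the design allows. It was 0.0667 after Benjamini-Hochberg adjustment over the 3 pairs. At day 3 mean Psmb7 was higher than in uninjured hearts (199.6 against 89.7 CPM), while mean Psmb10 was not lower (97.9 against 80.5). From day 7 on, Psmb10 itself lay below both its uninjured libraries. The test pools these times and does not separate them. Psmb8 to Psmb5 was 0.19 and 0.05 in the uninjured libraries, 0.24 and -0.33 at day 3, -0.20 and -0.05 at day 7, -0.59 and -0.30 at week 2, and -0.79 and -1.02 at week 4. The groups overlapped through day 3 replicate 1, and the mean difference of -0.50 did not pass (p = 0.133, adjusted 0.2, same exact test). Psmb9 to Psmb6 lay between -4.91 and -3.26 in the 8 libraries after MI, on both sides of the uninjured values of -3.99 and -3.81 (difference -0.06, p = 0.889, same exact test).

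**Figure D3:**
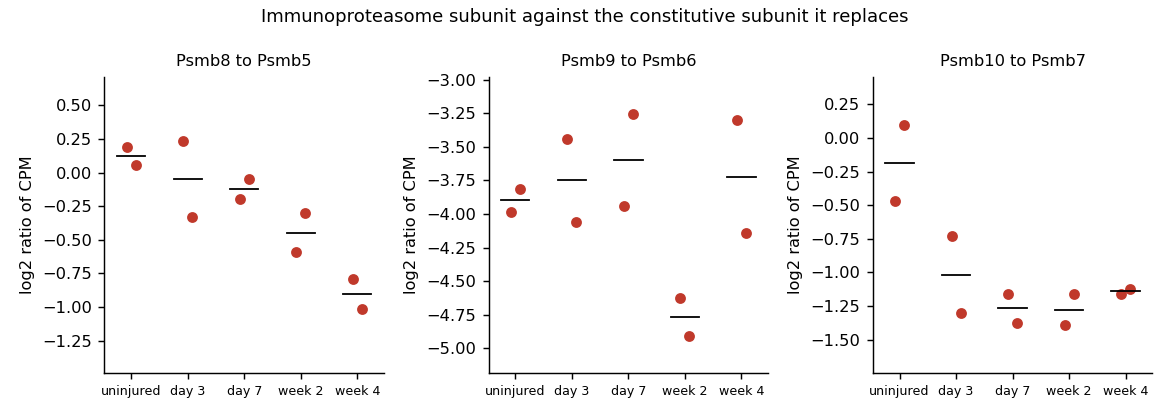
Log2 ratio of CPM of each immunoproteasome gene to the constitutive subunit it replaces, in each of the 10 RNA libraries, with group means as lines and axes of equal span. Psmb10 to Psmb7 was lower in all 8 libraries after MI than in both uninjured libraries, and Psmb9 to Psmb6 was not.

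Among other genes of the proteasome pathway, the share that passed the test at day 3 was close to that of all genes. Of 30 genes tested that the symbol rule leaves out (assembly chaperones, ubiquitin receptors, associated deubiquitinases, transcription factors and shuttle factors), 2 rose and 1 fell at day 3, where 11.8% of all genes changed, with a median log2 change of 0.12. The 2 were the assembly chaperone Psmg1 (log2 1.20, adjusted p = 0.0296, edgeR) and the proteasome-bound thioredoxin Txnl1 (0.84), and the gene that fell was Zfand5 (-0.98), which encodes a zinc finger protein that activates the proteasome. The maturation factor Pomp stood at 132 and 130.1 CPM in uninjured hearts and 209 and 249.8 at day 3, and did not pass (0.81, adjusted p = 0.0968, edgeR). The transcription factors Nfe2l1 (44.1 and 49.2 CPM, then 53.7 and 42.0) and Nfe2l2 (276 and 295, then 284 and 225) did not pass at day 3 either, with log2 changes of 0.04 and -0.17.

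Some genes of the interferon response and of antigen processing also rose at day 3, when 7.39% of all genes rose and 4.4% fell. Of 23 interferon response genes, 9 rose and 1 fell, led by Isg15 (log2 3.66), Irf7 (2.90), Usp18 (2.77) and Bst2 (2.25), and Ifngr1 fell by 1.33. Irf1 was at 116 and 194 CPM in uninjured hearts and 131 and 105 at day 3, with no change that passed (log2 -0.39, adjusted p = 0.68, edgeR). Of 12 genes of antigen processing and class I, Tap1 (1.31, adjusted p = 0.0192, edgeR) and Calr (1.36) rose and 0 fell. Tap1 went from 24.9 and 21.8 CPM to 64.6 and 51.3 at day 3, and its start lies 226 bases from that of Psmb9 on the opposite strand. Markers of macrophages and monocytes also rose: 14 of 20 rose at day 3 and 17 at day 7, and their sum went from 79.0 and 93.9 CPM to 766 and 1265 at day 3, 1996 and 3541 at day 7, 568 and 645 at week 2, and 189.9 and 282 at week 4. Ptprc, the pan-leukocyte marker, stood at 1.01 and 6.32 CPM in uninjured hearts, 18.2 and 26.1 at day 3, and 45.8 and 46.9 at day 7, and Csf1r at 3.001 and 0.054, 4.23 and 20.8, and 51.0 and 99.0. These markers peaked at day 7 and the summed proteasome genes at day 3. Other lists moved the other way, the endothelial one with 6 of 13 genes lower at day 3 and a sum of 555 and 416 CPM in uninjured hearts against 194 and 127. Markers of pericytes and smooth muscle, 2 of 6 lower, summed to 860.1 and 377 CPM in uninjured hearts and 141 and 52.9 at day 3. Cardiomyocyte markers, 1 of 6 lower, summed to 113 and 141 CPM and then 47.0 and 33.0. The 8 fibroblast markers summed to 60330 and 63007 CPM in uninjured hearts, 29345 and 18033 at day 3, and 61560 and 57609 at week 4. They did not move together: 5 were lower and 2 higher at day 3, with log2 changes of -3.64 to 2.90. Over all libraries, lymphocyte markers summed to 0.16 to 11.2 CPM, neutrophil markers to at most 21.7 CPM and dendritic cell markers to 5.65 to 18.3 CPM. The part of other cell types in the proteasome values was not tested.

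**Figure D4:**
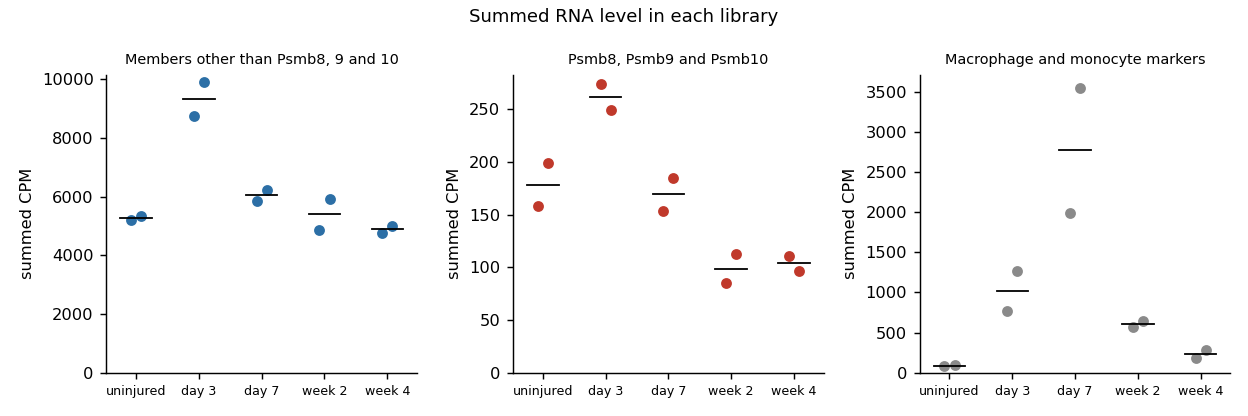
Summed CPM in each RNA library of the 41 members other than Psmb8, Psmb9 and Psmb10, of these 3 genes, and of 20 macrophage and monocyte markers, with group means as lines. The 41 members went from 5200.3 and 5350.3 CPM in uninjured hearts to 8753 and 9896 at day 3 and 4755 and 5003 at week 4, and the macrophage markers were highest at day 7.

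In accessible chromatin most proteasome genes had a called peak in every group. ATAC-seq cuts accessible DNA with a transposase, and each deposited list holds the called peaks of 1 library, 63901 to 107798 of them, with a fold enrichment per peak that is the authors' value. A peak lay within 1 kb of 42 of 44 members in both libraries of each group, against 62.5% of all genes in uninjured hearts, 68.6% at day 3, 65.8% at day 7, 64% at week 2 and 61.9% at week 4. The 2 others, Psma8 and Psme2b, had no peak in any list. The shares of all genes are over 25656 genes, expressed or not, whereas all 44 members passed the filter on low counts. Of the 37 members with a listed start, 35 had it under a called peak in all 10 libraries, as had 82.7% of the genes tested for RNA. The exceptions were Psma6, with a peak in 9 libraries, and Psme2b. The median fold enrichment at member starts was 48.7 and 48.6 in uninjured hearts, 44.7 and 43.0 at day 3, 34.8 and 30.2 at day 7, 47.8 and 44.2 at week 2, and 42.1 and 33.5 at week 4. All peaks also had their highest median in the uninjured lists, the member starts had a median percentile of 91.6 to 94.6 within their own list, and no change is read from values of lists that differ in length. Values of single lists depend on depth and called length, and no test was made on them.

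**Figure D5:**
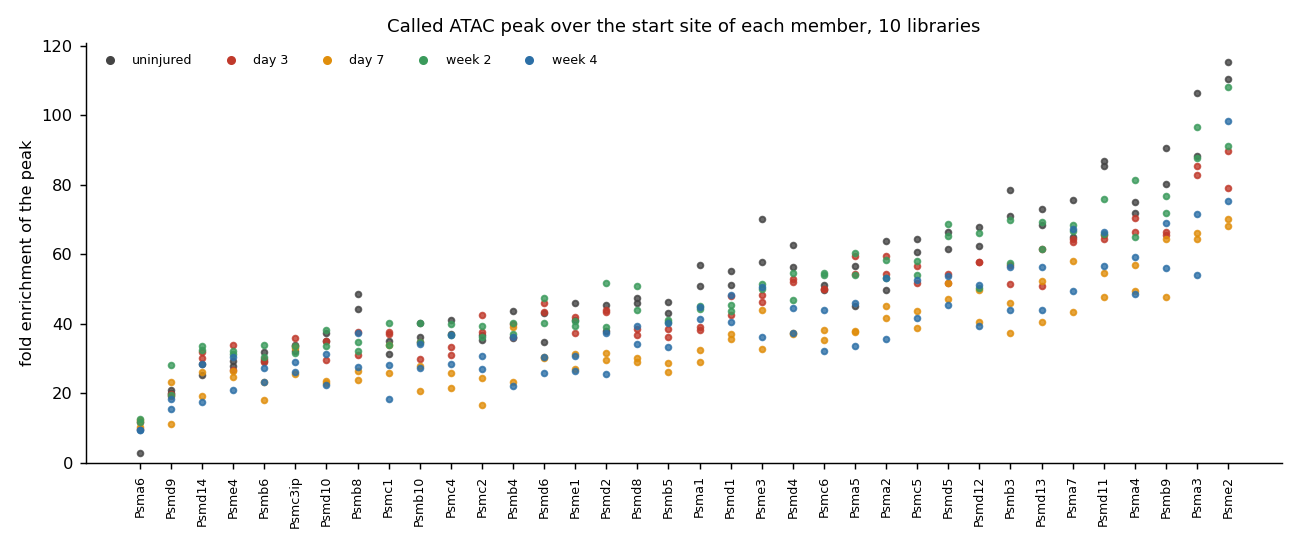
Fold enrichment, as given in the deposited lists, of the called ATAC peak over the listed start of each of 36 members, ordered by their median, with 1 point per library coloured by group. In all 10 libraries 35 of the starts were under a peak. Psma6, at the left with 9 points, had no peak in uninjured replicate 1 and 2.83 in uninjured replicate 2. A value can come from a summit away from the start, as for Psmb3 and Psmb10.

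The start of Psmb9, whose promoter is printed above, shared 1 peak with that of Tap1 in all 10 libraries. Its fold enrichment was 80.2 and 90.6 in uninjured hearts, 66.5 and 65.7 at day 3, 64.4 and 47.7 at day 7, 76.7 and 72.0 at week 2, and 69.0 and 56.1 at week 4. The peak ranked between percentile 98.2 and 99.5 of every list, also at week 2, when Psmb9 RNA was at its lowest. Its summit lay at -303 to -259 bases from the listed Psmb9 start, outside the printed window that was searched for motifs. The start of Psmb8 was under a peak of 48.7 and 44.3 in uninjured hearts, 30.9 and 37.7 at day 3, 26.6 and 23.8 at day 7, 34.9 and 32.1 at week 2, and 37.3 and 27.7 at week 4. All 8 libraries after MI lay below both uninjured libraries, as they did for 11 of the 35 members with a peak in all lists. The share of all genes with this order was not counted, so no loss is read from it. The median over all peaks was likewise highest in the uninjured lists, at 8.11 and 7.21 against 5.21 to 6.64 after MI. The percentile of the Psmb8 peak in the lists ran from 87.5 to 92.6. Its summit lay at -636 to -259 bases from the listed start, that is, before it and also outside the printed window. The deposited span of Psmb8 begins 474 bases before the listed start, so part of this range lies inside the span. Psmb10 had its summit 932 to 1140 bases past the listed start, with a fold enrichment of 20.6 to 40.4. The summit of the Psmb3 peak lay at -3248 to -383 bases from its listed start, with a fold enrichment of 37.5 to 78.5. The start of Psmd14, the member with the highest RNA rise, was under a peak of 25.3 and 28.3 in uninjured hearts, 31.9 and 30.2 at day 3, 26.03 and 19.1 at day 7, 32.5 and 33.7 at week 2, and 28.5 and 17.4 at week 4. Its day 3 libraries lay above the uninjured ones and below those of week 2. Psma4 had 75.2 and 71.8 in uninjured hearts and 66.5 and 70.6 at day 3, between percentile 97.2 and 99.4 of all lists.

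Peaks that came or went did not cover a listed start. Joining the 10 lists gave 104 regions within 1 kb of members, of which 52 were called in all 10 libraries, against 30.3% of regions near any gene. A region counted as gained when both libraries of a time and neither uninjured library had it, and as lost in the opposite case. At day 3, 6 regions near members were gained and 0 lost, where 15.4% and 0.968% of regions near any gene were. At day 7 it was 3 and 1 (7.72% and 2.14%), at week 2 it was 4 and 1 (4.58% and 2.27%), and at week 4 it was 2 and 2 (2.57% and 3.03%). None of these 9 regions, some called at several times, covered a listed start. The region gained near Psmd5 at day 3 and day 7, chr2:34873811-34875223, did cover the 5′ end of its deposited span. That end lies 4006 bases from the listed start. Psmb7 has no listed start, so this could not be asked of its regions. Gained regions were near Psma6, Psmb3, Psmb7, Psmc6 and Psmd5, and lost regions near Psme4 and Psmd9. Psmb7 had 2, at chr2:38591850-38592992 (fold enrichment 4.80 and 5.71 at day 3) and chr2:38609582-38610691 (3.84 and 3.06 at day 3), both weak beside the start peaks.

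Psma6 held the 2 regions near members that were gained at all 4 times, as were 1.08% of regions near any gene. The region chr12:55388796-55394315, within the Psma6 span, had no peak in either uninjured list, a fold enrichment of 32.9 and 37.7 at day 3, 14.5 and 18.6 at day 7, 16.6 and 9.30 at week 2, and 7.28 and 8.81 at week 4. It was highest at day 3 and still called in both libraries at week 4. Beside it, chr12:55385371-55388373 had no peak in uninjured hearts and 4.56 to 8.50 in the 8 libraries after MI. The listed start, near the 5′ end of the span, had no peak in uninjured replicate 1, 2.83 in replicate 2, and 9.31 to 12.6 after MI. A further region inside the span, chr12:55396786-55400270, was called in all 10 libraries with 40.9 and 43.0 in uninjured hearts, 48.7 and 45.7 at day 3, and 29.2 to 48.5 later. Psma6 RNA, at 73.7 and 83.0 CPM in uninjured hearts, was thus present where the listed start had a weak peak or none. Which start the RNA came from was not tested.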

How the data were processed

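RNA-seq and ATAC-seq libraries of sorted Tcf21-lineage cardiac fibroblasts were grouped by their labels, 2 per assay and group. Expected counts per gene make up the deposited RNA table, judging by decimals and unequal totals. The authors' counting program and strand setting were not given in the sources used here. Without roles, the submitters' processing notes name MACS2, Bowtie2 2.3, STAR 2.5.3a, Trim Galore 0.6, DESeq2, FastQC and the genome builds GRCm38 and mm10. The deposited peak lists are in narrowPeak format, whose columns give a score, a fold enrichment (a ratio), and the −log10 of p and of q. Peak calling settings were not given in the sources used here.

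Counts were rounded and tested in R 4.3.3 with edgeR 4.0.16 (TMM scaling, filterByExpr by group, robust quasi-likelihood fit of all 10 libraries on group, 5 residual degrees of freedom, Benjamini-Hochberg at 0.05 over all genes tested). SE is the log2 fold change over the square root of F. DESeq2 1.42.0 was an alternative, as were other scalings and filters, a replicate block and each library left out. CPM on the log2 scale, made here from the deposited counts, used a prior count of 2 for the ratios. PCR reads without molecular identifiers are not independent molecules. Peaks within 1 kb of a gene span counted as near it, and peaks of the 10 lists that overlapped were joined into regions. Promoters came from RefSeq on GRCm38.p6, the build of the files. For Psmd5, Psmd9, Psmb8 and Psmb9 the listed start lies 4006, 58777, 474 and 434 bases from the end of the deposited span. Members, roles and gene lists were chosen with earlier results of these data known. Genes named with values were the catalytic subunits, Psme1 and Psme2, up to 4 rising and 4 falling members per time with both libraries beyond both uninjured ones, the highest and lowest member per time, up to 4 passing genes per other list at day 3, and Tap1, Irf1, Nfe2l1, Nfe2l2, Pomp, Ptprc and Csf1r; 1 further gene of this rule is not reported here. Members outside this rule, such as Psme4 and the Psma6 regions, were named after their values were seen. Of 31 pathway genes outside the symbol rule, Paaf1 was not matched by symbol in the table.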

Additional observations from a re-analysis of the deposited data

Results flagged for a closer look

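For 33 comparisons the change of a member against uninjured hearts differed between 2 times, by the edgeR contrast between those times (adjusted p under 0.05). Between day 3 and day 7 this was Psmd14, lower at day 7 by -1.23 on the log2 scale. Between day 3 and week 4 it was 32 members, each lower at week 4, and their log2 differences (week 4 minus day 3) follow by role. In the alpha ring they were -0.90 for Psma1, -1.13 for Psma2, -1.12 for Psma3, -1.14 for Psma4, -1.15 for Psma5, -0.93 for Psma6 and -0.98 for Psma7. For the beta subunits they were -1.08 for Psmb1, -1.22 for Psmb2, -0.78 for Psmb3, -1.004 for Psmb4, -0.84 for Psmb5, -0.90 for Psmb6 and -0.98 for Psmb7. For the immunoproteasome they were -1.68 for Psmb8 and -1.09 for Psmb10. For the ATPases they were -1.15 for Psmc1, -0.97 for Psmc2, -0.91 for Psmc3, -1.02 for Psmc4, -1.09 for Psmc5 and -0.91 for Psmc6. For the other subunits of the regulatory particle they were -0.97 for Psmd1, -0.95 for Psmd2, -0.74 for Psmd4, -0.998 for Psmd6, -0.89 for Psmd7, -0.87 for Psmd8, -1.01 for Psmd12 and -1.44 for Psmd14. For the activators they were -1.24 for Psme2 and -1.61 for Psme4.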

How the results depend on the processing

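The direction of the day 3 rise held under every alternative run: 17 (no filter on low counts) to 28 members (DESeq2) were higher with all libraries kept, and 2 to 27 with 1 library left out, against 23. Members lower at week 4 than at day 3 numbered 29 to 33 with all libraries kept and 5 to 33 with 1 left out, against 32. The single member higher at day 7 (Psmd8) went to 0 with RLE scaling, with library totals, without the filter, without robust estimation and with only 2 groups, and to 0 to 1 with 1 library left out; members lower at day 7 went from 0 to 1 without the filter and with DESeq2, and 0 to 1 with 1 left out. Members lower went from 0 to 1 at week 2 and from 0 to 2 at week 4, both without the filter and with DESeq2, and at week 4 to 0 to 1 with 1 library left out. Members lower at day 7 than at day 3 went from 1 to 2 without the filter, to 7 with DESeq2 and to 0 to 1 with 1 left out. Over all genes, DESeq2 called 2836 (day 3), 2006 (day 7), 791 (week 2), 873 (week 4), 976 (day 7 against day 3) and 3135 (week 4 against day 3), where edgeR called 1764, 1070, 283, 348, 206 and 2000. Without the filter edgeR called 1846, 796, 971 and 814 at day 7, week 2, week 4 and day 7 against day 3, and with only 2 groups 635, 171, 653 and 119. With 1 library left out the counts over all genes were 677 to 2078, 312 to 1315, 134 to 450, 101 to 491, 31 to 418 and 691 to 2353 in the order of the 6 comparisons; a group then left with 1 library is assumed to vary like the others.

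Changes of sign among values that did not pass were as follows. Psmb7 at week 2 was -0.0088 with library totals and -0.087 to 0.11 with 1 library left out, with -0.0011 without uninjured replicate 1 among them. Psma8 at week 2 was -0.20 with the replicate block and -4.81 to 1.35 with 1 library left out, and at day 7 -8.01 to 1.95. With 1 library left out, Psmb5 was -0.24 to 0.052 at week 2 and -0.062 to 0.21 at week 4, and Psmb6 -0.085 to 0.052 at day 7 (0.042 among them) and -0.15 to 0.35 at week 2. Psmb9 was -0.00059 to 0.56 at day 7 and -0.40 to 0.19 at week 4, Psme1 -0.44 to 0.095 and Psme2 -0.62 to 0.059 at week 2. The log2 ratio of Psmb9 to Psmb6 after MI minus uninjured was -0.16 to 0.075 (0.027 and 0.035 among them). The cause of these changes was not tested.

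Near members, the count of gained regions at day 3 (6) became 3 with a −log10 q of at least 10 and 14 within 5 kb; at day 7 (3) it became 7 within 5 kb, and at week 4 (2) it became 1 when a peak had to cover at least 50% of the region. Lost regions became 1 at day 3, 3 at day 7 and 4 at week 2 under that overlap, and 0 at day 7, week 2 and week 4 under the stricter q. Members with a near peak in both libraries stayed at 42 with each ATAC library left out, an alternative chosen after seeing the data.

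Replicate numbers showed no sign of pairing the samples: same-numbered deviations correlated between -0.02 and 0.03 over the 10 pairs of groups. Such correlations cannot exclude a pairing or a shared batch. With the replicate block, 25 members were higher at day 3 and 32 lower at week 4 than at day 3, and Psme2 passed at day 3 (adjusted p = 0.0484, edgeR). With 2 libraries per group, Psma8 and other members of few counts cannot be resolved.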
